A study of Mus musculus with 12 samples.

Results

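RNA levels of the 10 genes of de novo purine synthesis and of the branches from inosine monophosphate (IMP) to AMP and GMP were examined in mouse CD8+ T cells. The genes were Ppat, Gart, Pfas, Paics, Adsl, Atic, Impdh1, Impdh2, Gmps and Adss, listed by their place in the pathway and matched by symbol among the 13780 genes of the count table. All 10 were present and all 10 passed the filter on low counts, with between 625 and 9147 counts in any library. The 12 libraries formed 3 groups of 4. Naïve cells were purified from the spleens of wild type C57BL/6J mice aged 8 to 12 weeks and frozen untreated. Media cells were activated for 72 h in plain medium with IL-2 (10 U/ml) and Dynabeads coated with anti-CD3 and anti-CD28, and lactate cells received the same stimulation for the same time in medium with 40 mM sodium lactate from the point of activation. All groups came from positive magnetic bead selection, and no sort of naïve cells by surface marker is described. No sodium chloride library was analysed here, so that lactate, sodium and osmolality cannot be told apart. The libraries were poly(A)-selected bulk RNA, in which fewer cells of a type and less RNA per cell cannot be told apart.

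De novo synthesis builds the purine ring step by step on phosphoribosyl pyrophosphate (PRPP), with nitrogen and carbon from glutamine, glycine, aspartate, bicarbonate and 10-formyl-tetrahydrofolate, and ends at IMP. IMP is then turned into AMP through adenylosuccinate or into GMP through xanthosine monophosphate. Lymphocytes that divide draw heavily on this route, and mycophenolate, an inhibitor of IMP dehydrogenase, is used to hold back their proliferation.

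Positions are given on GRCm38 from the GENCODE M21 annotation. Ppat (chr5:76913249-76951578, minus strand) and Paics (chr5:76951307-76967509, plus strand) stood head to head, with start sites 271 bases apart and first exons that overlapped by 272 bases. Gart (chr16:91621186-91646952) and Pfas (chr11:68985697-69008460) lay on the minus strand, and Adsl (chr15:80948490-80970946) and Atic (chr1:71557150-71579631) on the plus strand. Of the genes after IMP, Impdh1 (chr6:29200434-29216364) and Adss (chr1:177762962-177796511) were on the minus strand, and Impdh2 (chr9:108560286-108565584) and Gmps (chr3:63976106-64022579) on the plus strand. Apart from the Ppat and Paics pair, the 10 genes were scattered over separate regions.

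Promoter windows of 250 bases before to 50 bases after the start were taken from RefSeq (GRCm38.p6) and were found for 9 of the 10 genes, all but Pfas. Motif letters were searched on both strands. The E-box CACGTG, the letters bound by MYC and related factors, was in 3 of the 9 genes (Paics, Atic and Impdh2), and 7.15% of all 32851 RefSeq promoter windows held it. The GC box GGGCGG was in 9 of 9, against 35.7% of all windows, and CCAAT was in 4 of 9 (Gart, Paics, Atic and Impdh2), against 37.4%. The core of the NRF1 site, GCGCANGCG, was found in Ppat, and 6.25% of all windows held it. TGATGNAA, the composite letters of ATF4 and C/EBP, was in 0 of 9 and in 3.97% of all windows. A match is a description of the letters and not evidence of binding. The stretches upstream of Gart and Atic are shown because these genes had the largest increases with lactate, and the short windows of Ppat, Paics and Impdh2 because the NRF1 core and the E-boxes lay there. All are written along the strand of the gene, and capitals mark the E-box, NRF1 core, GC box and CCAAT box on either strand, including a pair of GC boxes upstream of Atic that share a base.
Gart, chr16:91646973-91647222, minus strand: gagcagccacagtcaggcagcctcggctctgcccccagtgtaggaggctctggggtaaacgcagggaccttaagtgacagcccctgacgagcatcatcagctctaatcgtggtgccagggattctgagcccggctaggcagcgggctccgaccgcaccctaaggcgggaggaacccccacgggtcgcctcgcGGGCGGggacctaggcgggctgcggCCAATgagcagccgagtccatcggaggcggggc
Atic, chr1:71556906-71557155, plus strand: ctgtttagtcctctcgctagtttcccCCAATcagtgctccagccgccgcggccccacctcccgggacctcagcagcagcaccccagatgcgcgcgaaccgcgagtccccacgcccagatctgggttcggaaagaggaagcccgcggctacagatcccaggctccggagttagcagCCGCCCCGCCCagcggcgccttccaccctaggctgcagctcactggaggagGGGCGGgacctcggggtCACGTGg
Ppat, chr5:76951601-76951630, minus strand: gcttcccgccGCGCAGGCGcgctgacgcga
Paics, chr5:76951087-76951116, plus strand: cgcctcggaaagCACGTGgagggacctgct
Impdh2, chr9:108560314-108560343, plus strand: gagctcgataagCACGTGgttacccagctc
Distances are from the RefSeq start, which for some genes differs from the GENCODE start. The Atic E-box began 7 bases before the RefSeq start, which lies 6 bases inside the GENCODE gene, so that the last 6 bases of the Atic stretch are GENCODE exon. In Paics and Impdh2 the E-boxes began 203 and 110 bases before the RefSeq start. The RefSeq start of Impdh2 lies 150 bases downstream of its GENCODE start, so the Impdh2 window is inside an Impdh2 exon in GENCODE. In Ppat, where both starts are the same, the NRF1 core began 42 bases before it. In GENCODE all 250 bases before the Ppat start are exon of Paics, and all 250 before the Paics start are exon of Ppat. The short windows of these 2 genes thus lie inside exon sequence of the neighbouring gene. The Gart stretch held a GC box and a CCAAT box and no E-box.

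Libraries held between 14726904 and 21478137 counts. No library pair agreed within sampling noise. Naïve replicate 4 differed from the other naïve libraries by a chi-square per degree of freedom of 127 to 141, against 25.1 to 45.9 among the other 3, and its summed level of 5 CD8+ T cell markers (Cd3d, Cd3e, Cd3g, Cd8a and Cd8b1) was 1579 CPM against 2635 to 3582 CPM. This replicate was the only naïve library of the high run of library numbers, described further on. CPM here are counts relative to library size, scaled by TMM (the trimmed mean of M values). In media libraries this marker sum was 2738 to 3462 CPM and in lactate libraries 2049 to 2609 CPM, with 3 of the 5 markers called lower with lactate. RNA of other cell types was found in the naïve group. The sum of 5 B cell markers was 467 to 1130 CPM in naïve, 9.03 to 16.1 CPM in media and 5.69 to 7.65 CPM in lactate libraries, and that of 5 myeloid markers was 420.3 to 1395 CPM in naïve and at most 0.982 CPM in activated libraries. The 4 red cell markers in the table summed to 84.1 to 3369 CPM in naïve libraries and to at most 1.90 CPM after activation, and the 4 CD4+ T cell and NK cell markers to 15.2 to 37.1 CPM and at most 1.77 CPM. Alas2 of the red cell markers and Ncr1 of the NK cell markers had 0 counts in all 4 media libraries. The part of these cells in any difference from naïve cells was not tested.

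To examine what lactate during activation was associated with, lactate libraries were compared with media libraries. A gene was called when its adjusted p was at most 0.01 in edgeR's quasi-likelihood test over all tested genes. Of the 10 genes, 5 rose and 0 fell: Gart 2.60-fold, Atic 2.04-fold, Adsl 1.82-fold, Pfas 1.80-fold and Ppat 1.62-fold. All of these act on the way to IMP, as does Paics, which was not called. Among all 13767 tested genes 13.9% were called higher and 11.1% lower. With the donor as a block, which pairs the libraries of 3 mice, only Gart and Adsl of these 5 were called, and 4.54% of all tested genes were called higher. With the threshold at 0.05 and no block, 8 of the 10 genes were higher, against 20.8% of all tested genes. The genes added at 0.05 were Impdh1, Impdh2 and Gmps, which act after IMP. A difference between the genes before and after IMP was not tested. In CPM scaled by TMM, every lactate library lay above every media library for 7 of the 10 genes, which held for 23.2% of all tested genes. The median log2 fold change of the 10 genes was 0.53, beside 0.00 (-0.0016) for all tested genes.

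**Figure D1:**
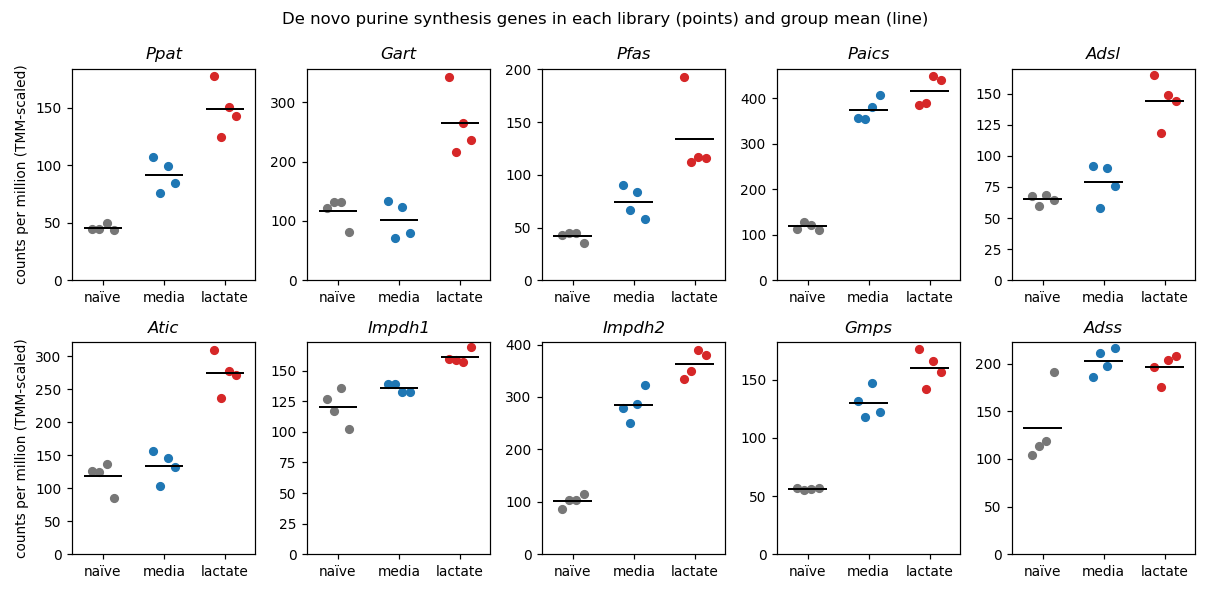
Level of each gene in CPM scaled by TMM (vertical axes, linear, from 0) in the 4 naïve, 4 media and 4 lactate libraries; each point is a library, in replicate order from left to right, and each line a group mean. Gart and Atic sit at like levels in naïve and media libraries and higher with lactate, whereas Paics, Impdh2 and Gmps take most of their rise between naïve and media.

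Ppat encodes the amidotransferase that commits PRPP to purine synthesis. Its level was 108, 75.8, 99.0 and 84.7 CPM in media replicates 1 to 4 and 177, 124, 151 and 143 CPM in lactate replicates 1 to 4. The lowest lactate library was above the highest media library. Ppat rose by 0.70 on the log2 scale (SE 0.13), with an adjusted p of 0.00115, a call lost in the donor-blocked fit (adjusted p = 0.0108).

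Gart encodes the trifunctional enzyme of the glycinamide ribonucleotide steps, including the earlier of the formyl transfers. It was at 134, 71.05, 123 and 80.0 CPM with media and 343, 216, 266 and 236 CPM with lactate. Media libraries differed among themselves by almost as much as a doubling, and lactate libraries were all above them. Its increase of 1.38 on the log2 scale (SE 0.23, 95% interval 0.88 to 1.88, adjusted p = 0.000663) was the largest of the 10 genes. An antisense gene, Gm15964, covered 19.7% of the exon bases of Gart, and as the sources name no strand option for the counting, reads of the pair cannot be told apart there.

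Pfas encodes the glutamine-dependent amidotransferase that acts between the Gart reactions. Media libraries were at 89.8, 66.8, 83.4 and 58.3 CPM and lactate libraries at 193, 112, 117 and 116 CPM. The groups did not overlap, and lactate replicate 1 stood well above the other 3 lactate libraries. The log2 fold change was 0.85 (SE 0.19), with an adjusted p of 0.00381. Without lactate replicate 1 it was 0.62, with an adjusted p of 0.00789, and the call was lost without media replicate 2 (adjusted p = 0.0157) or media replicate 4 (adjusted p = 0.0130), and in the donor-blocked fit (adjusted p = 0.0112).

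Paics encodes the enzyme with the carboxylase and synthase activities that follow ring closure. In media libraries it was at 357, 354, 382 and 408 CPM and in lactate libraries at 386, 391, 449 and 441 CPM. The groups overlapped. Its log2 fold change was 0.15 (SE 0.09, 95% interval -0.04 to 0.34), with an adjusted p of 0.197. Within both runs of library numbers, described further on, the lactate libraries were above the media libraries in CPM. The differences in mean log2 CPM were 0.09 and 0.12. This order within both runs held for 28.1% of all tested genes. In TPM, explained with Impdh1 below, the lactate and media libraries overlapped within both runs.

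Adsl encodes adenylosuccinate lyase, which acts once on the way to IMP and again on the way to AMP. Its level was 92.2, 58.4, 90.3 and 75.4 CPM with media and 165, 118, 149 and 144 CPM with lactate. All lactate libraries were above all media libraries. Adsl rose by 0.86 on the log2 scale (SE 0.14), with an adjusted p of 0.000639.

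Atic encodes the enzyme of the last formyl transfer and of ring closure to IMP. Media libraries were at 156, 104, 145 and 131 CPM and lactate libraries at 309, 237, 278 and 271 CPM. The groups were far apart, with every lactate library well clear of the highest media library. Atic rose by 1.03 on the log2 scale (SE 0.16, 95% interval 0.68 to 1.38), with an adjusted p of 0.000421, a call lost in the donor-blocked fit (adjusted p = 0.0124).

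The 4 genes after IMP did not pass the threshold in this comparison. Impdh1, an IMP dehydrogenase of the route to GMP, was at 139, 139, 133 and 133 CPM with media and 159.6, 159, 157 and 169.7 CPM with lactate. Libraries of each group lay close together and the groups did not overlap in CPM. In TPM, which are scaled by length and library without TMM, they did overlap, at 132.7 to 149.7 with media and 144.8 to 160.6 with lactate. Impdh1 had a log2 fold change of 0.25 (SE 0.09), with an adjusted p of 0.0400.

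Impdh2, the IMP dehydrogenase that proliferating cells are known to induce, was at 279.7, 249.6, 286 and 322 CPM with media and 335, 349, 389 and 381 CPM with lactate. These groups overlapped in neither CPM nor TPM. The log2 fold change was 0.35 (SE 0.10), with an adjusted p of 0.0176. Impdh1 and Impdh2 were called when naïve replicate 4 was left out (adjusted p = 0.00803 and 0.00862) and when media and lactate were fitted alone (adjusted p = 0.00927 and 0.00829). These were the only 2 of 25 alternatives at the threshold of 0.01 that called either gene. In the donor-blocked fit neither was called (adjusted p = 0.149 for Impdh1 and 0.139 for Impdh2). Of the windows of 71 bases, the read length, in the transcripts of Impdh2, 35.6% also occurred in the pseudogene Impdh2-ps, so that its level from uniquely mapped reads is uncertain.

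Gmps, the GMP synthetase, was at 131, 118, 147 and 123 CPM with media and 176, 142, 167 and 157 CPM with lactate. Lactate replicate 2 lay below media replicate 3, so the groups overlapped. The log2 fold change was 0.30 (SE 0.09), with an adjusted p of 0.0191. Without media replicate 3 or lactate replicate 2 it was called (adjusted p = 0.00983 and 0.00967). These were the only 2 of 25 alternatives at the threshold of 0.01 that called Gmps. The donor-blocked fit gave a log2 fold change of 0.24 (adjusted p = 0.164).

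Adss, the adenylosuccinate synthetase of the route to AMP, was at 186, 211, 198 and 217 CPM with media and 197, 176, 204 and 209 CPM with lactate. In CPM the groups overlapped through most of their range. In TPM every lactate library, at 125.6 to 143.8, was below every media library, at 145.7 to 163.2. The log2 fold change was -0.05 (SE 0.16, 95% interval -0.40 to 0.30), with an adjusted p of 0.852, and it came to 0.00 (0.0025) without lactate replicate 2.

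**Figure D2:**
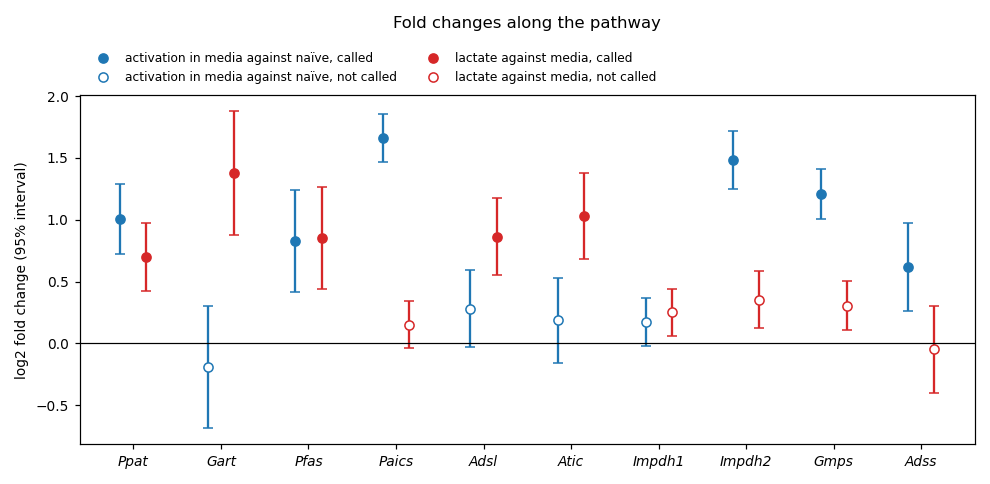
Log2 fold change (vertical axis) of each gene for media against naïve (blue) and lactate against media (red). The 95% intervals were derived from edgeR's log2 fold change and F. Filled points have an adjusted p of at most 0.01 and open points do not. In pathway order Gart, Adsl and Atic are filled for lactate alone, Paics, Impdh2, Gmps and Adss for activation alone, Ppat and Pfas for both, and Impdh1 for neither.

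The media libraries are the same in both comparisons drawn there, so the 2 fold changes of a gene are not independent, and a call in either comparison without a call in the other is not a test of their difference.

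Cells activated in media were compared with naïve cells to describe activation itself. Of the 10 genes, 6 rose and 0 fell: Paics 3.16-fold, Impdh2 2.79-fold, Gmps 2.31-fold, Ppat 2.01-fold, Pfas 1.78-fold and Adss 1.53-fold. Of all tested genes 28.5% were called higher and 29.0% lower in this comparison. For 5 of the 10 genes every media library lay above every naïve library, against 30.7% of all tested genes. The median log2 fold change was 0.72, and -0.03 over all tested genes. The B cell, myeloid and red cell marker RNA given above moved with these differences, and its part was not tested.

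Paics was at 112, 128, 123 and 112 CPM in naïve replicates 1 to 4. All 4 media libraries were above 350 CPM, far from any naïve library, and its log2 fold change was 1.66 (SE 0.09), with an adjusted p of 1.62e-08. For Ppat, its neighbour, the naïve libraries were at 44.5, 45.0, 49.5 and 43.8 CPM. They lay close together and below every media library, and the log2 fold change was 1.01 (SE 0.13), with an adjusted p of 1.89e-05.

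On the route to GMP, Impdh2 was at 87.0, 103, 103 and 114 CPM and Gmps at 56.8, 55.5, 55.8 and 56.9 CPM in the naïve libraries. The naïve Gmps libraries were the tightest group of the whole set. The log2 fold changes were 1.48 (SE 0.11, adjusted p = 1.47e-07) for Impdh2 and 1.21 (SE 0.09, adjusted p = 2.46e-07) for Gmps. Impdh1 was at 127, 117, 136 and 102 CPM in naïve libraries, which overlapped the media libraries, and its log2 fold change was 0.17 (SE 0.09, adjusted p = 0.101).

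Pfas was at 42.5, 45.2, 45.2 and 35.0 CPM in naïve libraries, below every media library. Its log2 fold change was 0.83 (SE 0.19), with an adjusted p of 0.00187. Gart was at 123, 132, 132 and 80.8 CPM, Atic at 126, 124, 137 and 84.7 CPM and Adsl at 67.6, 59.7, 68.8 and 64.6 CPM. Each of these 3 overlapped its media libraries, and naïve replicate 4 was the lowest naïve library for Gart and Atic. Fold changes on the log2 scale were -0.19 for Gart (SE 0.23, 95% interval -0.69 to 0.30), 0.19 for Atic (SE 0.16, -0.16 to 0.53) and 0.28 for Adsl (SE 0.14, -0.03 to 0.59), with adjusted p of 0.467, 0.316 and 0.101. Without naïve replicate 4 these 3 genes still did not pass.

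Adss was at 105, 114 and 119 CPM in naïve replicates 1 to 3 and at 191 CPM in naïve replicate 4. This library lay within the range of the media libraries while the other 3 were below it. Over all 4 naïve libraries the log2 fold change was 0.62 (SE 0.16), with an adjusted p of 0.00461. Without naïve replicate 4 it was 0.85 (adjusted p = 3.91e-06). The call was lost in 8 of 24 alternatives, namely without naïve replicate 1, 2 or 3, media replicate 2 or 4 or lactate replicate 3 or 4, where the adjusted p was 0.0121 to 0.0326, and with naïve and media fitted alone (adjusted p = 0.0144).

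Lactate cells were also set against naïve cells, the sum of both steps, with the naïve and lactate libraries already used above. All 10 genes rose, from 1.34-fold for Impdh1 to 3.57-fold for Impdh2. Of all tested genes 33.0% were called higher, and for 9 of the 10 genes, all but Adss, every lactate library lay above every naïve library, against 35.0% of all tested genes. The median log2 fold change was 1.36, beside 0.01 over all tested genes. Gart rose 2.27-fold (log2 1.18, SE 0.23, adjusted p = 0.000449) and Atic 2.32-fold (log2 1.22, SE 0.16, adjusted p = 1.88e-05). Impdh1 rose by 0.42 on the log2 scale (SE 0.09, adjusted p = 0.000830), a call lost without naïve replicate 2 or lactate replicate 4 (adjusted p up to 0.0127). Adss rose by 0.57 (SE 0.16, adjusted p = 0.00662), a call lost in 10 of 24 alternatives (adjusted p up to 0.0502), and by 0.80 without naïve replicate 4. The marker RNA of other cell types differed here as it did for media.

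To compare genes with each other, levels were scaled by length and library (TPM), with the exon lengths in the count table. Summed over the 10 genes, the level was 710.2 ± 31.2 TPM (SD, n = 4) in naïve, 1368 ± 80.2 TPM in media and 1656 ± 109 TPM in lactate libraries. Paics was the most abundant by mean in all 3 groups, at 129 ± 5.23 TPM in naïve, 414 ± 17.0 TPM in media and 418 ± 14.8 TPM in lactate libraries (SD, n = 4 each). Impdh2 was next to it after activation, at 319.8 ± 25.7 TPM in media and 372 ± 10.0 TPM with lactate, and libraries of the 2 genes did not overlap there. When levels were scaled by the longest transcript instead, Impdh2 came before Paics in all 3 groups, so the order of these 2 depends on the length used. The places given next hold for the lengths in the table.

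In naïve cells the 4 highest genes, Paics, Impdh1 at 125 ± 13.5 TPM, Impdh2 at 113 ± 14.8 TPM and Adss at 100.2 ± 34.0 TPM, overlapped each with the next in order. Pfas was lowest by mean in all 3 groups, at 18.0 ± 1.57 TPM in naïve, 32.7 ± 7.22 TPM in media and 53.8 ± 17.8 TPM in lactate libraries, although with lactate its libraries overlapped those of Gmps at 62.4 ± 6.76 TPM and, by the longest transcript, Gmps came below it. Gart was at 77.1 ± 14.2 TPM in naïve and 69.1 ± 22.5 TPM in media libraries, where it came sixth, and at 163 ± 39.7 TPM with lactate, where only Paics and Impdh2 were higher by mean and its libraries overlapped those of Impdh1 at 155 ± 6.87 TPM. Atic was at 58.3 ± 10.5 TPM with media and 108 ± 14.0 TPM with lactate, and Ppat at 72.1 ± 12.6 TPM and 107 ± 18.4 TPM, and with lactate the libraries of these genes overlapped. By the longest transcript, the lactate ranks were 3 for Atic, 4 for Gart and 8 for Ppat.

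**Figure D3:**
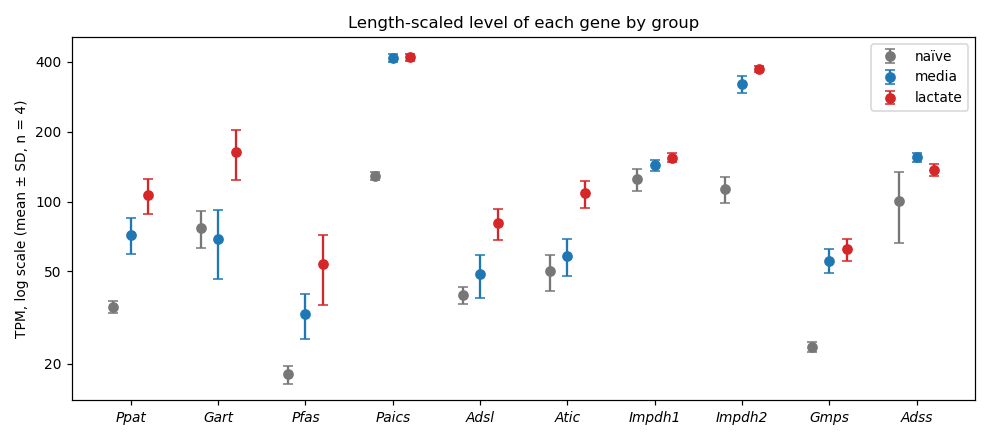
Mean TPM of each gene (vertical axis, log scale) with the SD of 4 libraries as bars, in naïve (grey), media (blue) and lactate (red) cells. Paics and Impdh2 stand above the other genes after activation, and Gart has the widest gap between its media and lactate means.

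The divergent neighbours Ppat and Paics were set side by side in every library. The ratio of Ppat to Paics, in counts per base of exon, was 0.282, 0.249, 0.287 and 0.279 in naïve replicates 1 to 4, 0.214, 0.152, 0.184 and 0.147 in media and 0.326, 0.226, 0.239 and 0.231 in lactate libraries. Every media library was below every naïve and every lactate library, and the naïve and lactate libraries overlapped. The group means were 0.274 ± 0.017, 0.174 ± 0.031 and 0.255 ± 0.048 (SD, n = 4 each). The overlap of the first exons takes in 6.15% of the exon bases of Ppat and 8.67% of those of Paics.

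For the isozymes, the ratio of Impdh2 to Impdh1 was 0.733, 0.940, 0.817 and 1.19 in naïve, 2.16, 1.92, 2.31 and 2.60 in media and 2.24, 2.35, 2.64 and 2.40 in lactate libraries. All activated libraries were above all naïve libraries, and media and lactate overlapped. The means were 0.921 ± 0.201, 2.25 ± 0.284 and 2.41 ± 0.169 (SD, n = 4 each). By the longest transcript the naïve mean was 1.20, and the windows that Impdh2 shares with its pseudogene make its level in the ratio uncertain. The height of both ratios depends on the length used, but a change of length acts on all libraries alike, and no test was run on either ratio.

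**Figure D4:**
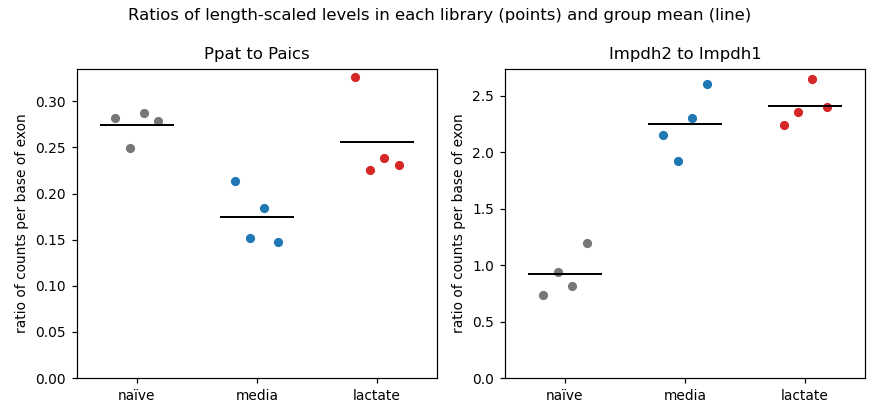
Ratio of Ppat to Paics (left) and of Impdh2 to Impdh1 (right), each in counts per base of exon (vertical axes, linear, from 0), with a point for each library in replicate order and a line for the group mean. On the left the media libraries, at 0.147 to 0.214, lie below all others; on the right the naïve libraries, at 0.733 to 1.19, lie below all others.

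Donor tags in the labels recur in low and high library numbers, and they were read separately within each, a reading that the labels do not state. Read so, there were 5 donors of activated cells. Of these, 3 mice were sampled under both conditions, namely media 1 with lactate 1, media 3 with lactate 2 and media 4 with lactate 4. Within these donors 8 of the 10 genes were higher with lactate in 3 of 3 mice, which held for 33.3% of all tested genes. The difference in log2 CPM, in that order of donors, was 1.36, 0.81 and 1.56 for Gart, 0.99, 0.70 and 1.04 for Atic and 1.10, 0.42 and 0.99 for Pfas. For Adsl it was 0.84, 0.39 and 0.93, and for Ppat 0.72, 0.33 and 0.76. In all 5 of these genes the donor of media 3 and lactate 2 had the smallest difference. Impdh2 differed by 0.26, 0.29 and 0.24 and Impdh1 by 0.20, 0.26 and 0.36, a narrow range across donors, whereas Gmps was lower with lactate in the donor of media 3 and lactate 2 (-0.05) and Adss was higher only in the donor of media 1 and lactate 1 (0.08).

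**Figure D5:**
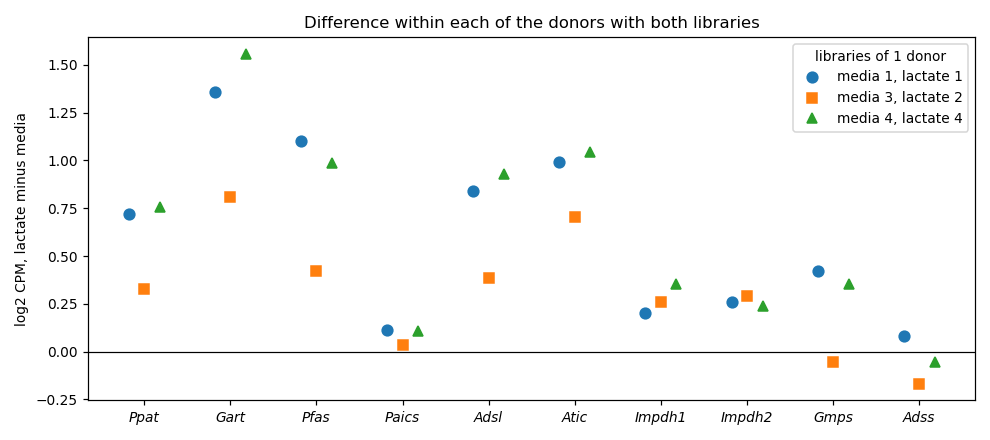
Lactate minus media in log2 CPM (vertical axis) within each of the 3 mice sampled under both conditions; each symbol is a donor. For Ppat, Gart, Pfas, Adsl and Atic all 3 donors lie above 0, with the donor of media 3 and lactate 2 the lowest of the 3.

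With the donor as a block in edgeR, 2 of the 10 genes were called higher, beside the 4.54% of all tested genes, namely Gart (log2 fold change 1.24, adjusted p = 0.00830) and Adsl (0.72, adjusted p = 0.00834). Ppat (0.60, adjusted p = 0.0108), Pfas (0.84, adjusted p = 0.0112) and Atic (0.91, adjusted p = 0.0124) missed the threshold in this paired fit, in which media 2 and lactate 3, whose donors gave a single library, carry no weight on the comparison.

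The library numbers in the labels fall into a low and a high run, and within both runs the lactate libraries of 8 of the 10 genes, all but Gmps and Adss, were above the media libraries. This held for 28.1% of all tested genes, and the high run holds 1 media library. In mean log2 CPM the low-run and high-run differences were 1.37 and 1.64 for Gart, 1.02 and 1.06 for Atic, 0.83 and 0.96 for Adsl, 0.89 and 1.00 for Pfas and 0.67 and 0.79 for Ppat. For media against naïve, the low run of 3 against 3 gave 1.59 for Paics, 1.48 for Impdh2, 1.23 for Gmps, 1.01 for Ppat, 0.84 for Pfas and 0.82 for Adss, and the single pair of the high run gave 1.87, 1.497, 1.10, 0.95, 0.73 and 0.18. Of these called genes Adss thus differed most between the runs, and its high-run naïve library was replicate 4. Among the genes not called, the low and high runs gave 0.05 and 0.63 for Atic and 0.12 and 0.37 for Impdh1. They gave -0.29 and -0.01 for Gart and 0.27 and 0.22 for Adsl.

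Genes around the pathway were counted by list, to be read against the 13.9% of all tested genes called higher and 11.1% called lower with lactate, and the 28.5% and 29.0% on activation. In lists this short, counts near those shares say nothing about the list. PRPP synthetases and their associated proteins, together with Adssl1, the muscle-type adenylosuccinate synthetase, make up 5 genes, of which 1 rose and 2 fell with lactate, and 1 rose on activation. Prps1, a PRPP synthetase, went from 67.3 ± 10.6 CPM in media to 117 ± 8.17 CPM with lactate (log2 fold change 0.80, SE 0.20, adjusted p = 0.00762). Adssl1 was at 8.46 ± 2.59 CPM in naïve, 64.5 ± 9.97 CPM in media and 25.0 ± 6.90 CPM in lactate libraries (SD, n = 4). It rose by 2.93 on the log2 scale on activation (SE 0.27, adjusted p = 1.08e-06) and fell by 1.37 with lactate (SE 0.25, adjusted p = 0.00116), while Adss stayed within 176 to 217 CPM in all activated libraries.

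The enzymes that supply 10-formyl-tetrahydrofolate, the carbon donor of the Gart and Atic reactions, number 7 in the list. With lactate 4 rose and 0 fell, with a median log2 fold change of 0.80, and on activation 5 rose and 0 fell, with a median of 1.78. Shmt1, the cytosolic serine hydroxymethyltransferase, was at 36.8 ± 10.6 CPM in media and 112 ± 22.5 CPM in lactate libraries (log2 fold change 1.61, SE 0.21, adjusted p = 0.000172). Mthfd2, a mitochondrial folate dehydrogenase, was at 30.1 ± 4.04 CPM in naïve and 223 ± 44.6 CPM in media libraries (log2 fold change 2.89, SE 0.15, adjusted p = 1.39e-08).

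Salvage enzymes return free bases and nucleosides to nucleotides. Of 5, 2 rose and 2 fell with lactate (median log2 fold change 0.52), and 3 rose on activation (median 0.66). Aprt, which salvages adenine, went from 65.7 ± 10.1 CPM in media to 99.5 ± 6.82 CPM with lactate (log2 fold change 0.60, SE 0.11, adjusted p = 0.00121). Dguok, the mitochondrial deoxyguanosine kinase, fell from 42.0 ± 4.00 to 23.3 ± 5.14 CPM (log2 fold change -0.85, SE 0.18, adjusted p = 0.00245). Hprt, which salvages hypoxanthine and guanine, rose from 84.7 ± 3.54 CPM in naïve to 211 ± 18.8 CPM in media libraries (log2 fold change 1.32, SE 0.08, adjusted p = 4.88e-08).

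Of the purine nucleotide kinases and ribonucleotide reductase subunits, 9 of 11 listed genes were in the table. With lactate 3 rose and 1 fell, and on activation 6 rose and 1 fell. Nme1, a nucleoside diphosphate kinase, went from 29.3 ± 7.87 CPM in media to 78.3 ± 10.1 CPM with lactate (log2 fold change 1.42, SE 0.20, adjusted p = 0.000265). Rrm2b, the p53-inducible reductase subunit, fell at both steps, from 37.8 ± 2.16 CPM in naïve to 25.8 ± 2.48 CPM in media (log2 fold change -0.55, adjusted p = 0.00114) and to 17.2 ± 2.48 CPM with lactate (-0.58, adjusted p = 0.00237). Ak4, a mitochondrial adenylate kinase, was at 0.0560 to 1.51 CPM in naïve and 62.4 to 86.0 CPM in media libraries, the largest increase of the list on activation.

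Breakdown and interconversion had 14 of 15 listed genes in the table. With lactate 3 rose and 2 fell, and on activation 2 rose and 4 fell, with a median log2 fold change of -0.34. Ampd2, an AMP deaminase that returns AMP to IMP, went from 58.5 ± 7.46 CPM in media to 146 ± 20.2 CPM with lactate (log2 fold change 1.32, SE 0.16, adjusted p = 0.000103). Samhd1, a dNTP hydrolase, fell from 573 ± 191 to 330.2 ± 26.2 CPM (log2 fold change -0.79, SE 0.20, adjusted p = 0.00708). Xdh, xanthine dehydrogenase, rose from 43.6 ± 4.35 CPM in naïve to 72.5 ± 10.4 CPM in media libraries (log2 fold change 0.74, SE 0.14, adjusted p = 0.000536).

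Gda, guanine deaminase, was at 24.0, 76.4, 10.3 and 10.6 CPM in naïve replicates 1 to 4 and at 0 in all 4 media libraries, where 3 counts in a library would be at most 0.188 CPM. Against that limit its mean was at least 161-fold lower in media, and at least 79.5-fold lower without naïve replicate 2. The naïve libraries differed widely, as did their summed myeloid markers at 1395, 1038, 455 and 420.3 CPM in the same order and their summed red cell markers at 933, 3369, 378 and 84.1 CPM. The part of those cells in the Gda level was not tested.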

How the data were processed

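RNA was sequenced as TruSeq Stranded mRNA libraries in single-end reads of 71 bases. The authors, per the labels and the study's methods, used bcl2fastq 2.20.0.422, aligned to GRCm38 with STAR 2.7.5b, removed PCR duplicates and used featureCounts on uniquely mapped reads in annotated exons; the strand setting is not given in the sources used here. The deposited values are raw counts per gene, whole numbers, for 12 libraries with 14726904 to 21478137 counts per library. Groups, donor tags and library numbers came from the sample labels.

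From these counts, the genes that reached 1 CPM in 3 libraries (13767 of 13780) were scaled by TMM and fitted in edgeR 4.0.16 (R 4.3.3) with 1 quasi-likelihood model of 3 groups over all 12 libraries and no block, as the study's methods name none. Tests were two-sided, with Benjamini-Hochberg adjustment over all tested genes. Standard errors were derived from the log2 fold change and F, and the 95% intervals from these with a t quantile, so both are approximate. Fits were tried on simulated counts with a fixed spread (dispersion) below the common value of 0.0553 fitted to these data. The simulation held no donor or run differences, so it says nothing about false calls at the spread of these libraries. The alternatives, 28 in all, were the likelihood ratio test, DESeq2 1.42.0, limma 3.58.1 voom, other scalings and filters, a fit limited to the groups compared, a block by donor or by title number, a library run term, thinning, an adjusted p of 0.05, other lengths for the ratios and leaving out each of the 12 libraries. TPM used the lengths in the table, which for all 10 genes equal the exon union in GENCODE M21.

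The same donor tags recur in the low and high library numbers and were read separately, which gives the 5 donors of the design text. Because same-tag libraries then come from the same mouse, the donor pairs the samples. The correlation over genes of the deviations of paired libraries from their group means was 0.374, 0.211 and 0.553, and that of media 4 with lactate 3, of different donors in the high run, was 0.371. Libraries sharing a title number gave 0.374, 0.297, 0.00380 and 0.553.

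The members and the lists of other genes were chosen with earlier results of these data known. In each list of other genes, the gene with the largest called increase and that with the largest called decrease in lactate against media and in media against naïve are named. Libraries far from their group were found with Dixon's test at the 95% level.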

Additional observations from a re-analysis of the deposited data

Results flagged for a closer look

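Of the 30 groups of 4 libraries (10 genes in 3 groups), 2 held a library that stood far from the others by Dixon's criterion, which chance meets in about 1 in 20 groups. Pfas was at 193 CPM in lactate replicate 1, and its other lactate libraries were at 112 to 117 CPM. Adss was at 191 CPM in naïve replicate 4, and the other naïve libraries were at 105 to 119 CPM. That library was also the one with the lowest sum of CD8+ T cell markers, at 1579 CPM. As the only naïve library of the high run of library numbers, it cannot be told apart from its run. What set either library apart was not tested.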

How the results depend on the processing

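For lactate against media, 5 genes were called, 8 at an adjusted p of at most 0.05 and 2 with the donor as replicate block, which pairs the libraries of 3 mice, beside 13.9%, 20.8% and 4.54% of all tested genes called higher. Leaving out each library in turn gave 4 to 7, beside 9.76% to 18.7% of all tested genes. For media against naïve these counts were 5 to 6 around 6, and for lactate against naïve 8 to 10 around 10, beside 25.2% to 30.8% and 29.2% to 35.3% of all tested genes. A block by title number left the calls of these genes as they were in each comparison. The log2 fold change of Adss for lactate against media ranged from -0.09 (-0.0876) to 0.00 (0.0025) over the leave-outs and changed sign without lactate replicate 2. Of the values of single genes under the alternatives, 245 for lactate against media kept their direction and side of the threshold, 9 passed it newly, 5 lost the call and 1 changed sign. For media against naïve 242 held and 8 lost the call, and for lactate against naïve 238 held and 12 lost it. The causes were not tested. With 4 libraries a group, log2 differences such as that of Paics with lactate (95% interval -0.04 to 0.34) could not be told from 0.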
